A study of Mus musculus with 19 samples.

Results

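Sorted stromal cells of the wild type mouse prostate were compared here with the basal cells of the epithelium that rests on them. The comparison took all 3 wild type stromal libraries and all 3 wild type basal libraries of a series of 19, chosen by their labels and not by any measured value. The series profiled basal, luminal and stromal cells that had been sorted by flow cytometry from anterior prostates, in order to learn what changes once stromal cells that express Lgr5 are removed. The 3 stromal and 3 basal libraries came from wild type control mice, and no transgene is recorded for them. For 1 comparison near the end, 4 stromal and 3 basal libraries of Lgr5-DTR-eGFP mice were added, which carry a diphtheria toxin receptor and a green fluorescent protein at Lgr5 and had received the toxin. The labels name purchased C57BL/6 mice and give neither the age of the animals nor whether the wild type mice were also given toxin. Nothing in them says whether each library had its own animals, so the p-values cover the spread among libraries, and part of that spread may be technical. The titles carry a number that stromal replicate 2 and basal replicate 1 share, and the labels do not say what it stands for. Across genes the deviations of these libraries from their group means correlated at 0.382, the highest of the 9 pairs of a stromal and a basal library.

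The prostate duct is lined by secretory luminal cells, with basal cells between them and a basement membrane. Outside that sheet lies the stroma of fibroblasts and smooth muscle, which makes most of the collagen and many of the growth factors to which the epithelium responds. Basal cells of glands share with smooth muscle a set of actin-binding proteins, and both tissues deposit chains of the basement membrane between them.

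Values are FPKM, fragments mapped to a transcript scaled to its length and to the depth of the library, summed over the transcripts of a gene, and every log2 difference is stromal minus basal of log2(FPKM + 1). On this scale the change of a gene at low FPKM is understated. All 20 fibroblast markers were higher in stromal than in basal cells and 19 of 20 basal markers were lower, with the remaining 1, Dsg3, under the filter on low values. The 20 fibroblast markers summed to 16410.1 to 19473 FPKM in stromal cells against 1666 to 1844 FPKM in basal cells, and the 20 basal markers to 41.0 to 91.0 against 12950.5 to 16654 FPKM. These are bulk samples, in which fewer cells of a type and less RNA per cell cannot be told apart. The lymphocyte list summed to 1.74 to 5.75 FPKM in stromal and 1.43 to 2.21 FPKM in basal cells, the mast cell list to 0.444 to 0.824 and 0.330 to 0.470, the macrophage list to 14.3 to 40.1 and 17.5 to 27.6, and the erythrocyte list to 0.491 to 59.2 and 0.206 to 33.5. The endothelial list summed to 43.7 to 71.02 FPKM in stromal and 13.8 to 22.2 FPKM in basal cells, the pericyte list to 40.3 to 48.7 and 6.07 to 8.91, the Schwann cell list to 8.26 to 13.6 and 31.1 to 32.9, and the neuroendocrine list to 6.85 to 8.22 and 0.507 to 1.48. Calca was the one neuroendocrine marker tested and was higher in stromal cells. The luminal list summed to 325 to 965 FPKM in stromal cells, 4866 to 5430.4 FPKM in basal cells and 31440 to 39976 FPKM in the 3 wild type luminal libraries. Pbsn, a secretory product of luminal cells, was at 347, 118 and 62.6 FPKM in the stromal libraries, 116, 120.1 and 173 FPKM in the basal libraries and 16876, 22090.4 and 19870.2 FPKM in wild type luminal libraries. Stromal replicate 1, the highest stromal library for Pbsn, was also the highest for Krt19, at 95.8, 25.7 and 50.1 FPKM over the 3 stromal libraries. Of 15 macrophage markers 3 were tested, Cd68 lower in stromal cells (-1.13), Lyz2 higher (0.70) and Cd14 not passing. The call of Lyz2 was lost with no filter (limma adjusted p = 0.0524), under quantile normalization (0.211), and without any 1 of basal replicates 2 and 3 or stromal replicates 1 and 2 (up to 0.0931). Under 1 FPKM in all 3 libraries were 7 of the 15 in stromal and 11 in basal cells, with Adgre1 and Csf1r in both. Of the endothelial markers, 2 were called lower in stromal cells, Pecam1 and Esam, and 2 higher, Ramp2 at 35.9, 31.3 and 53.9 against 0.729, 1.09 and 0.277 FPKM and Tek at 3.57, 2.396 and 4.95 against 0.438, 0.308 and 0.112 FPKM, while the endothelial cadherin gene Cdh5 was at 1.66, 0.724 and 0.915 FPKM in stromal and 0.602, 0.197 and 0.267 FPKM in basal cells. The call of Pecam1 was lost under median-ratio scaling (limma adjusted p = 0.0830), with no filter (0.0617), at pseudocounts of 0.1 (0.0618) and 5 (0.0538), with a replicate block (0.0687), and without any 1 of basal replicates 1, 2 and 3 or stromal replicates 1 and 2 (up to 0.151). The part of such RNA in the results below was not tested. The 6 libraries held 7.20 to 8.12 gigabases on annotated transcripts, with 9339 to 10604 genes at 1 FPKM or more. The table of basal replicate 2 stood apart, with 424 transcripts marked as having low data and 2616 above the upper limit of their own interval, against 0 and at most 1 in each of the other 5. Without it 2851 genes were called higher and 2623 lower in the comparison that follows.

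Most genes differed between the sorted populations. Of 10765 genes that reached 1 FPKM in at least 3 of the 6 libraries, limma called 3235 higher in stromal cells (30.1% of those tested) and 3108 lower (28.9%) at a Benjamini-Hochberg adjusted p of 0.05, together 58.9%. The groups did not overlap in 7106 genes (66.0%). The median difference of all genes tested was -0.0028. Against a share this high, a count of members called says little about a list by itself, and the sizes and directions are given with it.

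The genes with the largest excess in stromal cells were mostly for secreted proteins. Igfbp6, which binds insulin-like growth factors, was at 843, 913 and 913 FPKM in the stromal libraries against 0.621, 0.334 and 0.294 FPKM in the basal libraries, a log2 difference of 9.30 (SE 0.17, limma adjusted p = 3.02e-09). Serping1, the inhibitor of the first complement protease, was at 1605, 1565 and 1605 against 2.12, 2.74 and 2.14 FPKM, and Penk, which encodes an opioid peptide precursor, at 2743, 3947 and 1846 against 6.96, 4.45 and 3.84 FPKM. The chemokine-like adipokine gene Rarres2 was at 392, 496 and 483 FPKM and listed at 0 in the 3 basal libraries. The other 6 of the 10 largest rises were Serpinf1, Ccl2, Tnfaip6, Ccl7, the mesenchymal transcription factor gene Tcf21 (631, 850.4 and 485 against 1.15, 1.03 and 1.25 FPKM) and the microfibril gene Mfap4. Ccl2 and Ccl7, neighbouring chemokine genes on chromosome 11, ranked the stromal libraries in the same order, Ccl2 at 932, 1539 and 305 FPKM and Ccl7 at 529, 898 and 227 FPKM.

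The largest falls were among keratins and other genes of stratified epithelium. Krt14, a basal keratin, was at 6.75, 11.96 and 2.36 FPKM in stromal cells against 3546, 3310.0 and 2882 FPKM in basal cells (-8.86, SE 0.40, limma adjusted p = 1.53e-07). Krt17 was at 5.605, 14.3 and 1.75 against 4337, 2481 and 2352 FPKM and Krt15 at 34.9, 15.2 and 13.7 against 4632, 4577 and 4370.2 FPKM. Stromal replicate 2 was the highest stromal library for Krt14 and Krt17, and stromal replicate 1 for Krt15. The adhesion gene Cdh1, encoding E-cadherin, was at 4.77, 1.62 and 3.39 against 919, 933 and 749 FPKM, and Sfn, a 14-3-3 protein gene of squamous epithelium, at 8.54, 9.64 and 4.501 against 1725, 1495 and 1504 FPKM. Plet1, Krt5, the laminin-binding integrin gene Itga3 and the cornified envelope gene Ivl were also among the 10 largest falls. The rule for these genes took only genes whose groups did not overlap.

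**Figure D1:**
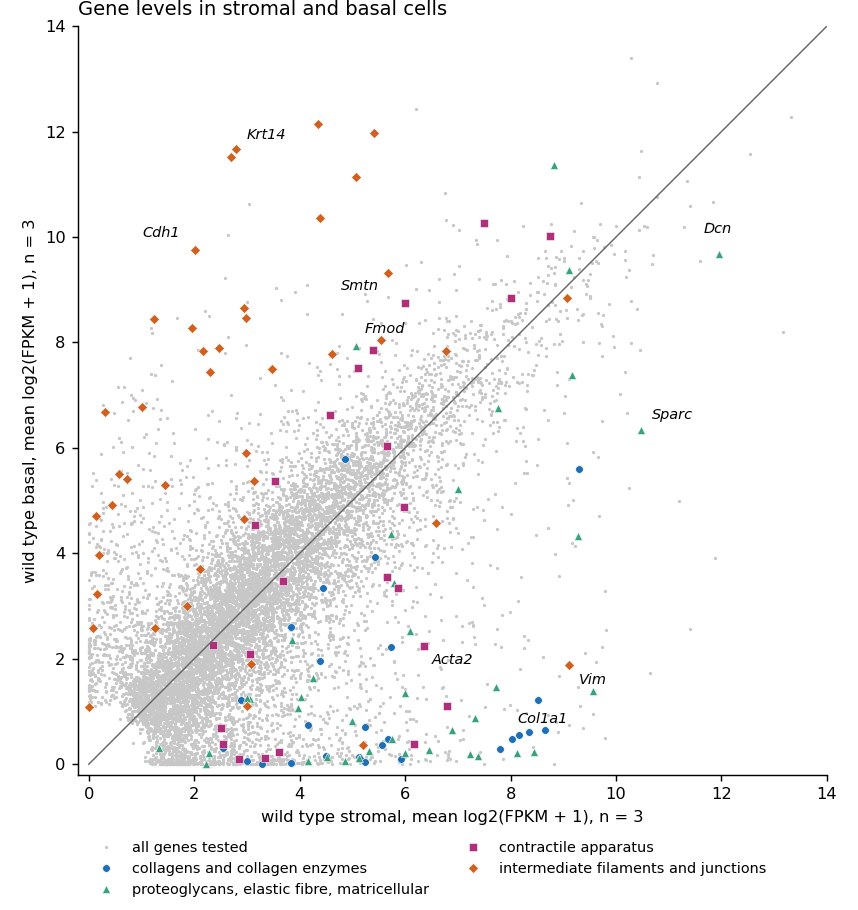
Mean log2(FPKM + 1) over the 3 wild type stromal libraries (x axis) and the 3 wild type basal libraries (y axis), with 1 small grey point for each of the 10765 genes tested and larger symbols for members of 4 groups of lists; the line marks equal levels. Collagen genes lie along the bottom right, keratin and junction genes at the upper left, and contractile genes on both sides of the line.

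The contractile genes were divided between the layers. Of 25 members of the contractile list, 24 were tested, 12 were higher in stromal cells, 9 were lower and 3 did not pass, and the median of all 25 was 0.55 (all genes tested, -0.0028). The share called, 21 of 24, stands against 58.9% of all genes. Those higher in stromal cells were mostly the actins, myosins, desmin and calponin-type proteins that mark differentiated smooth muscle. Acta2, the smooth muscle actin gene (mm10, chromosome 19 at 34240336 to 34255373), was at 107, 73.8 and 66.96 FPKM in stromal cells against 3.297, 2.996 and 5.17 FPKM in basal cells (4.11, SE 0.24, limma adjusted p = 7.49e-07). Every stromal library was thus more than 10 times above every basal library. Des, encoding the muscle intermediate filament desmin, was at 60.9, 63.5 and 91.9 against 0.189, 0.335 and 0.391 FPKM. Pdlim3, which ties actin bundles to alpha-actinin, was at 84.999, 70.05 and 225 against 1.02, 0.853 and 1.65 FPKM, and stromal replicate 3 was its highest library. Ppp1r14a, an inhibitor of myosin phosphatase, was at 9.76, 7.97 and 17.8 against 0, 0.418 and 0.128 FPKM. Synpo2, Actg2, Myl9, Myh11, Cald1, Mylk, Tagln and Cnn1 were the other 8. Tagln, which encodes the actin-binding protein transgelin, was at 96.8, 49.005 and 50.4 against 34.4, 28.6 and 23.4 FPKM (1.10, SE 0.28, limma adjusted p = 0.00728), and lost its call in a fit over all 9 wild type libraries (limma adjusted p = 0.35).

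The members that were lower in stromal cells were mostly tropomyosins, cross-linkers and the anchors of actin at adhesions. Smtn, the smoothelin gene (mm10, chromosome 11 at 3517522 to 3539292), is used as a marker of contractile smooth muscle, and was at 49.4, 79.8 and 62.2 FPKM in stromal cells against 388, 452 and 449 FPKM in basal cells (-2.76, SE 0.20, limma adjusted p = 2.76e-06). Its lowest basal library was above its highest stromal library by more than 4 times. Tpm1, with the largest fall, was at 204, 202 and 139 against 1399, 1117 and 1199 FPKM (-2.78), and Tpm2 at 44.5, 40.5 and 37.5 against 317, 205 and 191 FPKM. The Tpm1 difference was -4.35 for NM_001164250 alone, its most abundant transcript over the 6 libraries but not in stromal cells. Flna, which cross-links actin filaments, was at 33.3, 32.4 and 35.1 against 182, 208 and 162 FPKM. Vcl, Rock2, Actn1, Csrp1 and Myl6 were also lower. Rock1, Myh10 and Pdlim7 did not pass, Pdlim7 at 45.98, 47.7 and 55.6 against 69.2, 65.1 and 59.5 FPKM. The 15 smooth muscle markers summed to 357 to 447 FPKM in stromal and 441 to 499 FPKM in basal cells, where Smtn made up most of the sum. Of the 12 markers tested, 10 were higher in stromal cells and Smtn was lower.

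**Figure D2:**
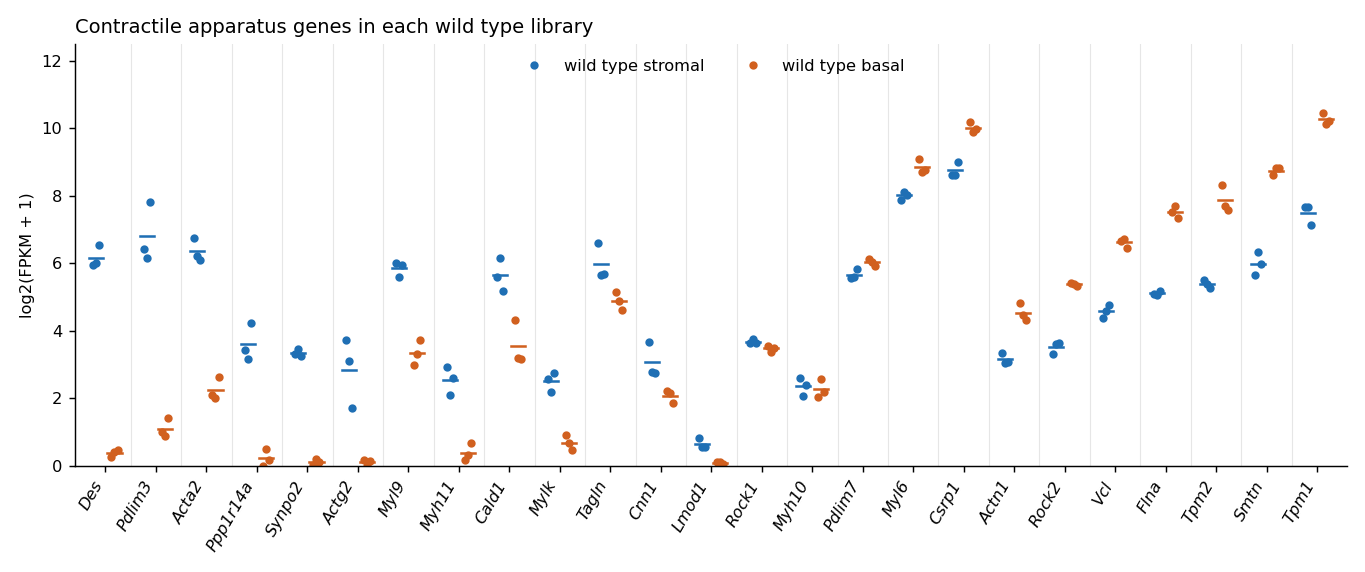
Level of each of the 25 contractile list members in the 3 wild type stromal (blue, left) and 3 wild type basal (orange, right) libraries, as log2(FPKM + 1); points are libraries, bars their means, and genes are ordered by the difference. The order runs from Des, Pdlim3 and Acta2, where the stromal libraries are higher, to Tpm2, Smtn and Tpm1, where the basal libraries are higher; Lmod1, the least abundant, was not tested.

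Serum response factor drives many contractile genes by binding the CArG box, a run of A and T between CC and GG. Srf itself was lower in stromal cells, at 11.01, 9.71 and 14.8 against 54.4, 53.7 and 54.6 FPKM (-2.13, SE 0.19, limma adjusted p = 1.1e-05). Its cofactor genes differed little, with Mkl2 at 1.78, 2.89 and 1.77 against 3.89, 4.05 and 3.31 FPKM (-0.61, limma adjusted p = 0.0305) and Mkl1 not passing. The call of Mkl2 was lost under median-ratio scaling (limma adjusted p = 0.0585) and without any 1 of basal replicates 1, 2 and 3 or stromal replicates 1 and 3 (limma adjusted p up to 0.103). Myocd, the cofactor of smooth and cardiac muscle, did not reach the filter. The receptor genes for endothelin, Ednra at 5.91, 5.505 and 6.39 against 0, 0.218 and 0 FPKM and Ednrb at 4.8997, 7.75 and 8.48 against 0.718, 0.0698 and 0.186 FPKM, were higher in stromal cells, and the angiotensin receptor gene Agtr1a was lower (1.35, 0.624 and 1.79 against 1.38, 5.38 and 5.18 FPKM). That call of Agtr1a was lost with no filter (limma adjusted p = 0.0997), under median-ratio scaling (0.0598), at a pseudocount of 0.1 (0.0505), and without any 1 of basal replicates 2 and 3 or stromal replicates 1 and 2 (up to 0.146). In the RefSeq promoter table (build GRCm38.p6), 482 of 32851 windows of 250 bases before a gene's start held a CArG box on either strand (1.47%). A window was found for 21 of the 25 contractile genes, and 3 of these held a box, Myl9, Vcl and Myl6. Myl9 was higher in stromal cells and Vcl and Myl6 were lower. The windows are printed for Myl9, Vcl and Srf, because the same motif stands before a gene that was higher in stromal cells and before a pair that was lower, and capitals mark the CArG boxes. They lie at chr2:156775214-156775463 on the plus strand for Myl9, at chr14:20929148-20929397 on the plus strand for Vcl and at chr17:46556163-46556412 on the minus strand for Srf.
Myl9: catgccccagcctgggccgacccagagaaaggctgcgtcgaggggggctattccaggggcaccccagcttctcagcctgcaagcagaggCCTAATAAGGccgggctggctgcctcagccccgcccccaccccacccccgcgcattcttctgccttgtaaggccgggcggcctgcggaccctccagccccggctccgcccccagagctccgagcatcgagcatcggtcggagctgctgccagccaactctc
Vcl: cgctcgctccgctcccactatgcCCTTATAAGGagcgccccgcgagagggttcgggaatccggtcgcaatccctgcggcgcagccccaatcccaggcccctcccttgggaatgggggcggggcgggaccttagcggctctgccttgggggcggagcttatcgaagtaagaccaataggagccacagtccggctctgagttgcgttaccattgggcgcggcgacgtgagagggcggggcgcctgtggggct
Srf: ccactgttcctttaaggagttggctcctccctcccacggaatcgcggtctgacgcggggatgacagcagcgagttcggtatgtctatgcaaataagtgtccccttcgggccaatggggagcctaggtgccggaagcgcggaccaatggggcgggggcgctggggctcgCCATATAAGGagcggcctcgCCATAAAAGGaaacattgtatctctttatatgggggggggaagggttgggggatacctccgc
The box begins at -161 in Myl9, at -227 in Vcl, and at -82 and -62 in Srf, counted from the start of the gene. Myl9, the regulatory light chain of smooth muscle myosin, was at 63.2, 47.7 and 61.5 FPKM in stromal cells against 6.9998, 8.84 and 12.2 FPKM in basal cells. Vcl, encoding the adhesion protein vinculin, was at 19.6, 23.1 and 26.1 against 101, 104 and 87.4 FPKM. A motif in such a window is a description of the sequence, and no binding was measured.

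Interstitial collagens and the enzymes that assemble them were almost wholly stromal. Of 15 collagen genes 14 were tested, and 13 were higher and 1 lower in stromal cells, while of 14 genes for collagen assembly 13 were tested and all 13 were higher (58.9% of all genes were called in either direction). The medians over all members were 4.97 and 3.46. Col1a2 and Col1a1, the chains of type I collagen, were at 402, 376 and 436 and 259, 228 and 298 FPKM in stromal cells, against 0.708, 0.683 and 0.353 and 0.416, 0.459 and 0.321 FPKM in basal cells. The type VI chain genes Col6a1 and Col6a2 differed by 7.62 and 7.51 on the log2 scale. Pcolce, which enhances the trimming of procollagen, was at 319.6, 369.6 and 287 against 0.523, 0.5595 and 0.471 FPKM, and the cross-linking enzyme gene Lox at 44.2, 46.6 and 48.3 against 0.242, 0.372 and 0.267 FPKM. Serpinh1, the collagen chaperone gene, was the assembly gene with most transcript in basal cells, at 633, 612 and 649 against 54.5, 46.4 and 43.1 FPKM. The exception among the collagens was Col16a1, a minor collagen that links fibrils, at 28.98, 24.6 and 30.6 FPKM in stromal cells against 40.6, 70.1 and 56.8 FPKM in basal cells (-0.94, SE 0.22, limma adjusted p = 0.00487).

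A further list held small leucine-rich proteoglycans, which coat collagen fibrils, and Dpt, which encodes a matrix protein outside that family. Of its 10 genes, 9 were higher in stromal cells and Fmod was lower, with a median of 4.24. Bgn was at 770.4, 762 and 748 against 1.28, 1.91 and 1.69 FPKM, Dpt at 247, 279 and 307 against 0.17002, 0.0741 and 0.219 FPKM and Lum at 165, 173 and 118 against 0.183, 0.09305 and 0.147 FPKM. Fmod, the fibromodulin gene (mm10, chromosome 1 at 134037515 to 134048277), ran the other way at 41.04, 31.04 and 27.3 FPKM in stromal cells against 199, 278 and 259 FPKM in basal cells (-2.86, SE 0.21, limma adjusted p = 2.93e-06). Dcn, the decorin gene (mm10, chromosome 10 at 97479500 to 97518162), was at 3920.0, 4025 and 3946 FPKM in stromal cells and at 729.6, 844 and 879.8 FPKM in basal cells (2.28, SE 0.14, limma adjusted p = 9.29e-07). In wild type luminal cells it was at 34.6, 11.9 and 15.005 FPKM. The same basal libraries had Col1a1, Dpt, Lum, Clec3b and Pdgfra each under 0.5 FPKM, and 11 of the 20 fibroblast markers were under 1 FPKM in all 3 of them. Dcn was not the only marker of that list abundant there, with Ly6a at 833, 532 and 496 FPKM. Prelp was at 120.2, 111 and 154 against 23.9, 45.96 and 44.1 FPKM.

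Elastic fibre and matricellular genes followed the collagens, with 27 of 29 higher in stromal cells, 1 lower, 1 not passing and a median of 3.56. The microfibril genes Mfap4 and Mfap5 were at 318, 335 and 389 and 176, 192 and 133 FPKM in stromal cells against 0.267, 0.163 and 0.107 and 0.204, 0.119 and 0.0291 FPKM in basal cells, and Fbln1 at 158, 153 and 166 against 1.18, 0.702 and 0.643 FPKM. Sparc, a collagen-binding matricellular protein gene, was at 1511, 1504 and 1263 against 77.1, 85.5 and 78.5 FPKM and Ltbp4, which stores latent TGF-beta in the matrix, at 559, 465 and 724 against 138, 198 and 167 FPKM. The CCN genes, which respond to mechanical load, were on opposite sides. Ctgf was at 304, 186 and 179.7 FPKM in stromal cells against 94.8, 139.8 and 91.1 FPKM in basal cells (1.02, SE 0.25, limma adjusted p = 0.00662). Cyr61 was at 764, 243 and 507 against 2456, 3077 and 2463 FPKM (-2.54, SE 0.35, limma adjusted p = 0.000223), and the stromal libraries differed among themselves by up to 3 times. Thbs1, the thrombospondin 1 gene, was at 677, 587 and 424 against 506, 892 and 650.5 FPKM and did not pass (-0.27, limma adjusted p = 0.37).

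Some contractile, matrix and adhesion genes were abundant in both layers. Of the 144 members of the 7 contractile, matrix, basement membrane and integrin lists, 27 had at least 20 FPKM in all 6 libraries, and of these 9 were higher in stromal cells, 13 were lower and 5 did not pass (81.5% called, against 52.1% of the 1591 genes at that level). The 9 higher were Tagln, Serpinh1, Dcn, Prelp, Ltbp4, Sparc, Ctgf, Col4a1 and Itga5. The 13 lower were Smtn, Tpm1, Tpm2, Flna, Csrp1, Myl6, Col16a1, Fmod, Cyr61, Col18a1, Itgb1, Sdc1 and Sdc4. Csrp1, a LIM protein that binds alpha-actinin, was at 395, 394 and 515 against 1172, 941 and 1019 FPKM and Myl6, the light chain of most myosins, at 236, 278 and 260.0 against 547, 415 and 430.2 FPKM. Pdlim7, Thbs1, Lamc1, Itgb5 and Dag1 did not pass after adjustment. The intervals of their differences, which are not adjusted, were -0.74 to -0.0042 for Pdlim7, -0.82 to 0.28 for Thbs1, -0.35 to 0.44 for Lamc1, -0.53 to 0.41 for Itgb5 and 0.018 to 0.96 for Dag1 (95%, log2).

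The basement membrane was divided chain by chain. Of 25 members 24 were tested, 14 were higher in stromal cells, 7 lower and 3 did not pass, with a median of 1.34. Laminins are trimers of an alpha, a beta and a gamma chain. The stromal chains were Lama2, Lama4, Lamb1, Lamb2 and Lamc3, with Lama2 at 48.7, 48.6 and 56.3 against 0.149, 0.0632 and 0.245 FPKM, Lama4 at 23.2, 21.3 and 32.8 against 0.2901, 0.288 and 0.0916 FPKM and Lamc3 at 59.1, 58.2 and 79.3 against 0.122, 0.476 and 0.456 FPKM. Lama3, Lama5 and Lamb3 were lower. Lamb3 was at 0.579, 0.664 and 0.549 FPKM in stromal cells against 128, 156 and 139 FPKM in basal cells, and Lama5 at 0.822, 0.397 and 0.647 against 23.8, 34.4 and 29.2 FPKM. Lama3 and Lamb3 encode chains of the laminin that anchors hemidesmosomes. Lamc1, the gamma chain that most laminin trimers contain, was at 36.1, 35.2 and 45.6 against 40.2, 39.1 and 33.7 FPKM and did not pass (0.042, limma adjusted p = 0.849).

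The nidogens and the type IV collagen chains were higher in stromal cells, Nid1 at 128, 119.8 and 122 against 6.34, 5.71 and 6.13 FPKM and Col4a1 at 111, 108 and 93.1 against 35.95, 38.7 and 31.3 FPKM. Col17a1, the hemidesmosomal collagen, was at 0.3298, 0.238 and 0.0799 FPKM in stromal cells against 152, 107 and 86.5 FPKM in basal cells. Col18a1, the precursor of endostatin, was at 27.2, 39.3 and 36.5 against 252, 243 and 214 FPKM and Agrn was also lower. Col7a1, whose anchoring fibrils tie the membrane to the stroma, and Npnt did not pass.

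**Figure D3:**
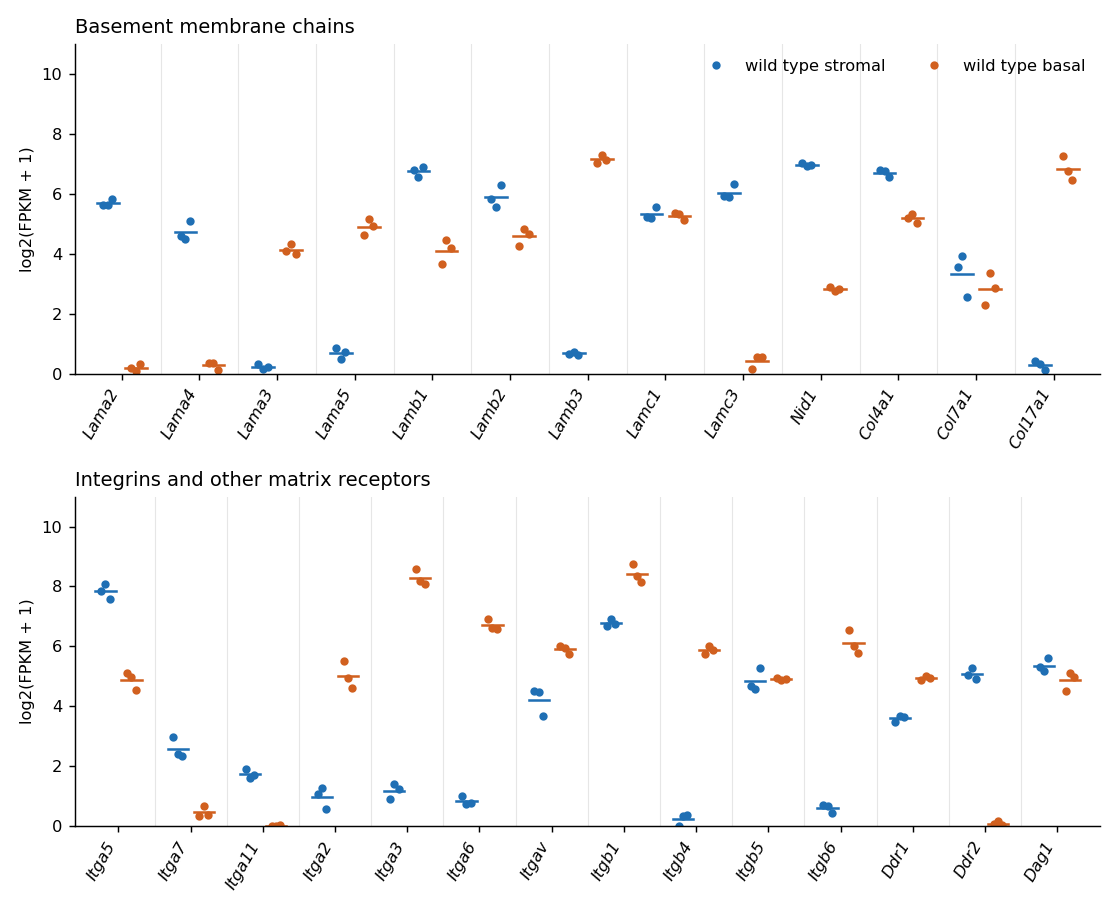
Level of 13 basement membrane chains (upper panel) and 14 matrix receptors (lower panel) in the 3 wild type stromal (blue, left) and 3 wild type basal (orange, right) libraries, as log2(FPKM + 1); points are libraries and bars their means. Lama2, Lama4, Lamc3 and Nid1 are high in stromal cells and low in basal cells, Lamb3 and Col17a1 the reverse, and the points of Lamc1 overlap.

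The receptors for matrix were divided too. Of 26 integrin and hemidesmosome genes 23 were tested, 6 were higher in stromal cells, 13 lower and 4 did not pass, with a median of -0.54. The hemidesmosome integrin genes Itga6 and Itgb4 were at 1.03, 0.656 and 0.6996 and 0, 0.258 and 0.288 FPKM in stromal cells, against 120.0, 96.5 and 94.7 and 52.8, 64.3 and 57.7 FPKM in basal cells. Itga3 was at 0.868, 1.63 and 1.37 against 387, 287 and 267 FPKM and Itgb6, which pairs with the alpha V chain to activate latent TGF-beta, at 0.619, 0.608 and 0.366 against 91.9, 64.3 and 54.3 FPKM. The basal cells also had more of Itgb1, the beta chain common to many receptors, at 103, 119 and 107 FPKM in stromal cells against 430.4, 323 and 280.5 FPKM in basal cells (-1.63, SE 0.19, limma adjusted p = 7.11e-05). Higher in stromal cells were the fibronectin receptor gene Itga5 (228, 272 and 193 against 33.7, 30.2 and 22.5 FPKM), Itga7, Itga9, Itga11, the proteoglycan gene Sdc2 and Ddr2, a tyrosine kinase activated by fibrillar collagen (32.2, 38.2 and 29.01 against 0.04502, 0.124 and 0.0165 FPKM). Its relative Ddr1 was lower, as were the syndecan genes Sdc1 (110.3, 121 and 130.4 against 769, 526 and 615 FPKM) and Sdc4.

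Keratin and junction genes were mostly basal. Of 16 filament genes tested (17 members), 12 were lower in stromal cells, 2 higher and 2 did not pass, with a median of -4.68, and of 26 junction genes tested (29 members) 23 were lower and 3 higher, with a median of -3.16. Vim, the vimentin gene, was at 572, 542 and 535 FPKM in stromal cells against 2.31, 2.799 and 2.95 FPKM in basal cells and Synm, encoding synemin, at 7.56, 5.05 and 9.09 against 0.814, 1.27 and 1.39 FPKM. Krt5 was at 2.496, 1.54 and 0.455 against 381, 307 and 352 FPKM. The keratins of simple epithelium were abundant in the basal sort too, with Krt8 at 36.6, 14.7 and 14.2 against 1559, 1125 and 1269 FPKM and Krt18 at 67.4, 24.6 and 20.2 against 2365, 2114 and 2286 FPKM, and both were highest in stromal replicate 1 among the stromal libraries, the one with most Pbsn. Cldn4 was at 58.8, 34.2 and 35.4 against 3701, 4263 and 4038 FPKM and Cldn1 at 3.199, 1.63 and 4.25 against 360.3, 279.8 and 288 FPKM. The 3 junction genes higher in stromal cells were the mesenchymal cadherin Cdh11 (35.4, 29.8 and 42.8 against 0.275, 0.219 and 0.369 FPKM), Cdh13 (79.5, 71.3 and 149 against 21.9, 22.3 and 24.3 FPKM), a cadherin with a lipid anchor, and the desmosomal plakophilin Pkp2 (7.94, 5.8002 and 8.79 against 2.55, 3.04 and 2.603 FPKM).

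Transcription factors of epithelial and mesenchymal identity followed the layers, apart from Snai2. Of 24 epithelial regulators 21 were tested, 16 were lower in stromal cells and 5 did not pass, with a median of -2.11. Trp63, a p53 relative on which basal cells depend, was at 0.00727, 0.0202 and 0.0827 FPKM in stromal cells against 42.1, 37.1 and 34.3 FPKM in basal cells. Foxa1 was at 3.24, 0.321 and 2.05 against 153, 203 and 220.2 FPKM and Ovol1 was at 0.503, 0.345 and 0.195 against 40.2, 39.1 and 46.01 FPKM. Of 31 mesenchymal regulators 28 were tested, and 27 were higher and 1 lower, with a median of 2.14. Osr2 was at 138, 87.2 and 205 against 0.668, 0.141 and 0.438 FPKM, Prrx2 at 55.2, 74.2 and 91.6 against 0.234, 0.358 and 0.271 FPKM and Foxf1, a target of hedgehog signalling, at 40.04, 46.5 and 54.8 against 0.169, 0.358 and 0.5996 FPKM. The 27 also held Zeb1, Zeb2, Snai1, Twist1 and Twist2, which repress epithelial genes. Snai2, the relative of Snai1, was the exception at 1.703, 4.53 and 2.27 FPKM in stromal cells against 36.3, 56.8 and 58.9 FPKM in basal cells (-3.79, SE 0.30, limma adjusted p = 5.03e-06), with each basal library at least 8 times above each stromal library.

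Genes of steroid handling were found on both sides. The list of 12 nuclear receptors and androgen enzymes had 9 members tested, 5 higher in stromal cells, 1 lower and 3 not passing. Their share called is near the 58.9% of all genes, and the median was 0.59. The enzymes that turn testosterone into dihydrotestosterone were on opposite sides, Srd5a2 at 95.6, 94.1 and 146 FPKM in stromal cells against 0.0578, 0 and 0.114 FPKM in basal cells and Srd5a1 at 1.13, 0.9704 and 1.48 against 5.703, 8.87 and 10.7 FPKM. Rara and Rarb, receptors for retinoic acid, and the glucocorticoid receptor gene Nr3c1 were higher in stromal cells as well. Esr1 did not pass, and Esr2 and Pgr did not reach the filter.

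Growth factor genes were split by family. Of 27 ligands 25 were tested, 15 higher in stromal cells, 8 lower and 2 not passing, and of 20 receptors 16 were tested, 6 higher, 6 lower and 4 not passing, with medians of 0.83 and 0.047. Among the ligands higher in stromal cells, 4 were fibroblast growth factors, Fgf7, Fgf2, Fgf18 and Fgf10, while Fgf1 was lower. Fgf7, also called keratinocyte growth factor, was at 21.3, 23.1 and 22.3 FPKM in stromal cells against 0.0412, 0.0975 and 0 FPKM in basal cells (4.47, SE 0.17, limma adjusted p = 6.13e-08), and Fgf1 at 4.31, 3.39 and 6.15 against 93.2, 85.9 and 93.1 FPKM. Igf1 was at 18.9, 17.05 and 19.9 against 0.1302, 0.00494 and 0.0437 FPKM and the midkine gene Mdk at 80.7, 91.9 and 84.1 against 3.5999, 3.22 and 5.13 FPKM. Of the ligands of the EGF receptor family, Tgfa was at 2.85, 0.953 and 2.87 FPKM in stromal cells against 70.4, 71.2 and 60.2 FPKM in basal cells, Hbegf at 95.8, 37.5 and 72.2 against 591, 724 and 832 FPKM and Areg at 20.8, 16.2 and 4.91 against 153, 77.9 and 70.6 FPKM. These 3, Ereg and Nrg1 were lower in stromal cells, and Btc did not reach the filter. Egfr itself was at 31.8, 36.4 and 21.4 against 87.7, 78.3 and 61.2 FPKM and Erbb3 at 0.109, 0 and 0.0241 against 1.18, 2.59 and 1.403 FPKM.

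Several ligands and their receptors were on opposite sides. The platelet-derived growth factor genes Pdgfa and Pdgfb were lower in stromal cells while their receptor genes were higher, Pdgfra at 41.8, 44.3 and 60.5 FPKM in stromal cells against 0.1202, 0.2004 and 0.363 FPKM in basal cells and Pdgfrb at 19.4, 21.6 and 41.3 against 0.0192, 0.155 and 0.1802 FPKM. Pdgfd was higher in stromal cells, at 26.7, 19.1 and 36.8 against 0.152, 0.221 and 0.087004 FPKM. Hgf was higher in stromal cells and its receptor gene Met lower, at 0.286, 0.183 and 0 FPKM in stromal cells against 25.3, 27.1 and 21.1 FPKM in basal cells. Gdnf and its coreceptor gene Gfra1 were both higher in stromal cells, Gfra1 at 34.7, 26.4 and 53.9 against 0.479, 0.245 and 0.287 FPKM, and Ret, the kinase they share, did not reach the filter.

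**Figure D4:**
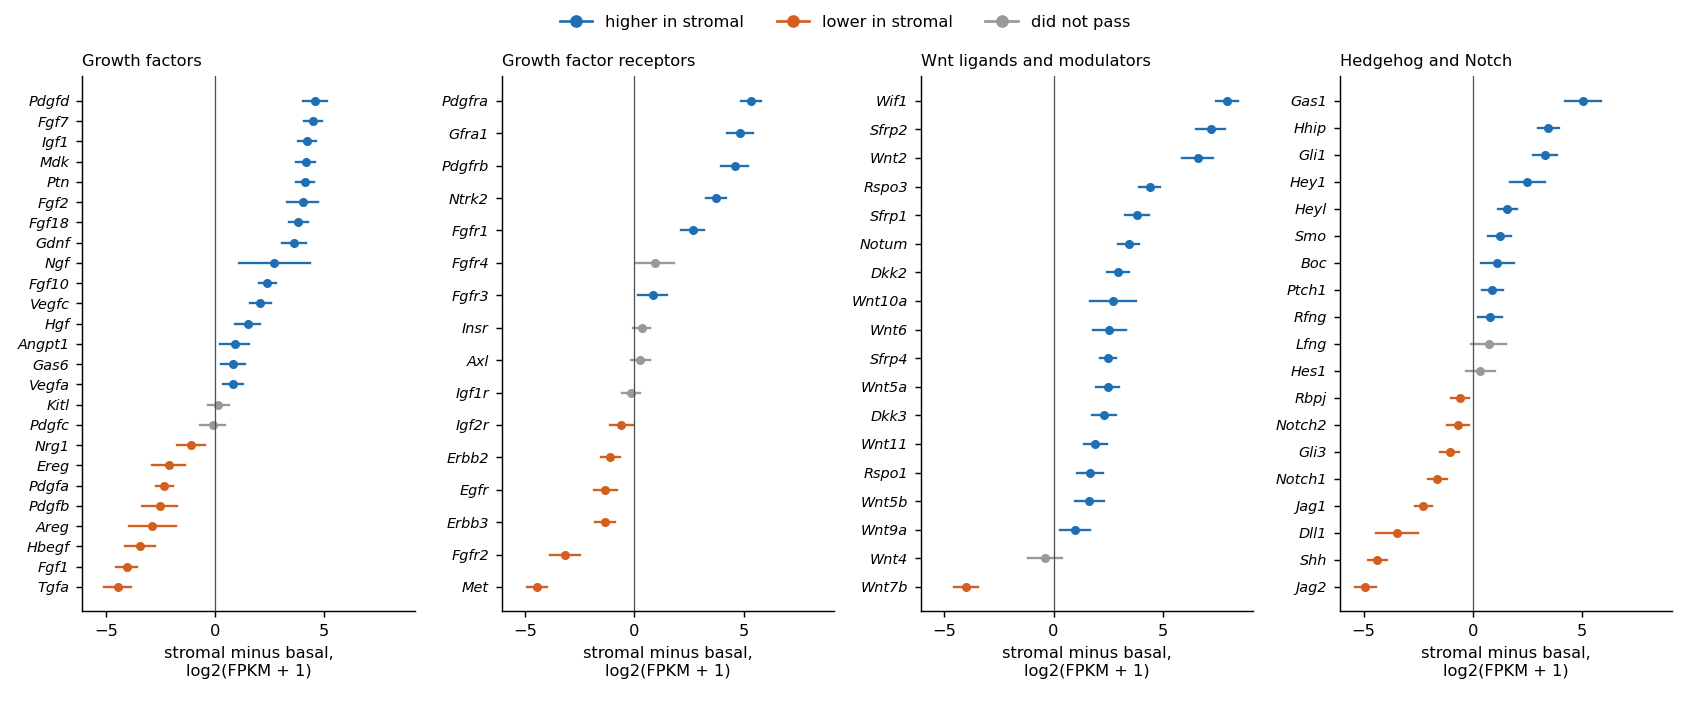
Stromal minus basal difference in log2(FPKM + 1) with its 95% interval for the tested members of 5 lists in 4 panels; blue genes were called higher in stromal cells, orange genes lower, and grey genes did not pass. In the panel of Wnt ligands and modulators 16 of 18 genes are higher, and Shh and Jag2 lie at the bottom of the panel of hedgehog and Notch genes.

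The receptor for Fgf7 differed in form as well as in level. Fgfr2 (mm10, chromosome 7 at 130162451 to 130266808) was at 5.34, 3.89 and 9.53 FPKM in stromal cells against 45.7, 63.8 and 81.1 FPKM in basal cells (-3.19, SE 0.31, limma adjusted p = 2.04e-05). Its transcripts use either of a pair of exons for the end of the third immunoglobulin domain, and the IIIb form made with the first binds Fgf7 and Fgf10 while the IIIc form made with the second does not. NM_201601, the IIIb transcript, was 20.2, 19.8 and 19.999% of the Fgfr2 FPKM in the stromal libraries against 72.1, 73.2 and 69.9% in the basal libraries. NM_010207, the IIIc transcript, was 79.8, 80.2 and 80.001% against 27.9, 26.8 and 30.1%. The transcripts differ outside this pair of exons as well. NM_010207 has 18 exons with 3 coding exons of its own, and NM_201601 has 16 exons with 1. The shares are of whole transcripts, and the part of the other exons in them was not tested. The log2 ratio of the IIIc transcript to the rest of the gene differed by 2.67 (SE 0.18, limma adjusted p = 0.000387). The groups did not overlap, and within a group the shares differed by less than 4 percentage points. In FPKM the IIIb transcript was at 1.08, 0.769 and 1.91 in stromal cells against 32.9, 46.7 and 56.7 in basal cells, and the IIIc transcript at 4.26, 3.12 and 7.62 against 12.8, 17.1 and 24.4. The IIIc transcript thus was also more abundant in basal cells in absolute level, and only its share was higher in stromal cells.

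Other transcripts also changed share between the layers. The ratio of a transcript to the rest of its gene was tested for 2778 transcripts of 1531 genes, and 503 transcripts (18.1%) of 352 genes (23.0%) were called. This ratio follows the level of the gene where every other transcript is listed at 0, and 132 of the 503 were at 100% of their gene in all 6 libraries. A ratio of shares, which lacks that property and was added after seeing the data, called 257 transcripts (9.26%) of 147 genes (9.61%), and 246 transcripts of 141 genes passed both. By the first ratio 248 transcripts were called lower in stromal cells, against 159 without basal replicate 1 and 152 without basal replicate 2. Among these 141 genes the leading transcript differed between the layers in 54. In the list of 36 genes known for splicing that differs between epithelium and mesenchyme or muscle, 18 were tested, 13 had a called transcript and 9 passed both.

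The 9 were Fgfr2, Cd44, Tpm1, Tpm3, Plec, Mprip, Csnk1d, Ctnnd1 and Numb. Cd44, the hyaluronan receptor gene, did not pass in its summed level, at 31.8, 60.9 and 23.8 FPKM in stromal cells against 35.4, 19.6 and 16.5 FPKM in basal cells (0.65, limma adjusted p = 0.156). All of its stromal FPKM was in NM_001039151, a transcript of 9 exons that was listed at 0 in the basal libraries. The basal FPKM were in NM_001177785, with 16 exons, at 51.3, 61.1 and 57.5%, in NM_001039150, with 14 exons, at 13.5, 20.7 and 25.9%, and in others. The exons that the stromal transcript lacks are the variable exons of the extracellular stem. Plec, which links intermediate filaments to hemidesmosomes and actin, differed in its first exon. NM_201394, which starts at the exon chr15:76195424-76195710, was 25.4, 17.1 and 16.8% of the gene in stromal cells against 100% in basal cells, and NM_201389, which starts at chr15:76205598-76206322, was 54.8, 55.2 and 53.8% in stromal cells and listed at 0 in basal cells. In Mprip, which targets myosin phosphatase to actin, NM_012027 was 78.99, 80.1 and 76.9% in stromal cells against 39.2, 40.1 and 42.5% in basal cells. The kinase gene Csnk1d had 60.3, 50.3 and 68.5% in stromal cells against 19.05, 23.9 and 24.01% in basal cells in NM_139059. The catenin gene Ctnnd1 had 11.7, 22.2 and 24.4% against 47.1, 45.99 and 48.4% in NM_001085449, a call lost without basal replicate 1, 2 or 3 (limma adjusted p up to 0.0636). An alternative used only the most abundant transcript of a gene, chosen by its mean over these same 6 libraries. For Cd44 it took NM_001039151, listed at 0 in basal cells, so a large positive difference was fixed by the choice (5.21, against 0.65 for the sum). The difference of Plec was then -2.69, against -0.60 for the sum, and that of Mprip changed sign to 0.32, against -0.59. The call of the Mprip sum was also lost without basal replicate 2 (limma adjusted p = 0.0620) and without stromal replicate 1 (0.0558). That of the Plec sum was lost in a fit over all 9 wild type libraries (limma adjusted p = 0.0625).

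The tropomyosin genes Tpm1 and Tpm3 each had a transcript with FPKM in stromal cells only. In Tpm1, NM_024427 was 57.7, 65.6 and 58.7% of the gene in stromal cells and listed at 0 in basal cells, and NM_001164250 was 42.3, 34.4 and 24.9% in stromal cells against 100% in basal cells. In Tpm3, NM_001253740 was 39.5, 24.7 and 23.8% in stromal cells and listed at 0 in basal cells, where all FPKM were in NM_001253738. In both genes the transcripts differ in a pair of alternative coding exons of 76 bases, and NM_001253740 of Tpm3, with 9 exons against 8, also has a further coding exon that NM_001253738 lacks. The pairs are printed to show this difference between the transcripts, and read base by base without gaps, with capitals at the positions where the members of a pair differ. They lie at chr9:67031951-67032026 and chr9:67032466-67032541 on the minus strand for Tpm1 and at chr3:90089048-90089123 and chr3:90088401-90088476 on the plus strand for Tpm3.
Tpm1 NM_024427 exon: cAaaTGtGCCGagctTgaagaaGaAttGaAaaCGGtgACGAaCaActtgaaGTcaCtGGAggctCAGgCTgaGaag
Tpm1 NM_001164250 exon: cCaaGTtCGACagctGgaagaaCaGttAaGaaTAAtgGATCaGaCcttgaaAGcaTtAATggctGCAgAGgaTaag
Tpm3 NM_001253740 exon: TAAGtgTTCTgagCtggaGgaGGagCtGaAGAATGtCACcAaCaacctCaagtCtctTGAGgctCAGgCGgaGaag
Tpm3 NM_001253738 exon: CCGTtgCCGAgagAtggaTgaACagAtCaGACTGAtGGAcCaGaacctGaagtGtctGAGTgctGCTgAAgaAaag
The members of the Tpm1 pair have the same base at 43 positions (56.6%) and those of the Tpm3 pair at 39 (51.3%). In both genes the transcript with FPKM in stromal cells only uses the second of the pair in the direction of transcription. In Tpm3 it was the minor transcript of stromal cells. Estimates of transcripts that share most of their length rest on few reads, and an exact 0 can be a division that went to 1 side.

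**Figure D5:**
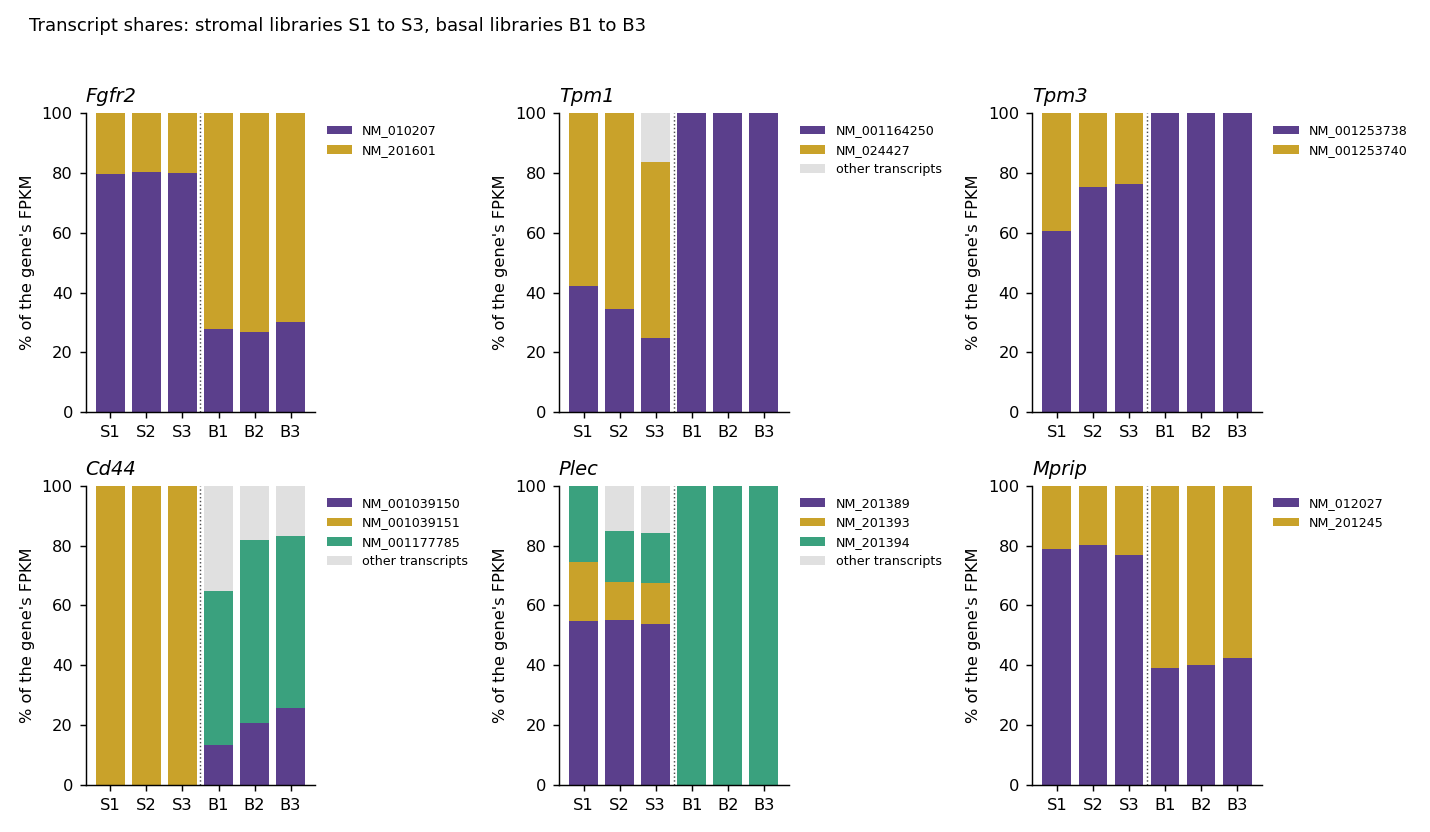
Share of each gene's FPKM (%, y axis) in its transcripts for 6 genes, in stromal libraries S1 to S3 and basal libraries B1 to B3; grey is the sum of transcripts that were not tested. The IIIc transcript NM_010207 makes up about 80% of Fgfr2 in each stromal library and under 31% in each basal library, and the tested transcripts of Cd44 have FPKM in 1 layer each.

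Wnt genes were mostly on the stromal side. Of 28 ligands and secreted modulators 18 were tested, 16 were higher in stromal cells, 1 was lower and 1 did not pass, with a median of 1.64. The antagonist gene Wif1 was at 655, 702 and 986 FPKM in stromal cells against 1.63, 2.98 and 1.899 FPKM in basal cells, Sfrp2 at 146, 125 and 275 against 0.0382, 0.136 and 0.383 FPKM and Wnt2 at 84.999, 84.2 and 192 against 0.0179, 0.309 and 0.144 FPKM, each highest in stromal replicate 3, which was also highest for Lgr5. Rspo3, a ligand of the Lgr receptors, was at 23.2, 23.4 and 15.97 against 0.0155, 0 and 0.0468 FPKM. Wnt7b, an epithelial ligand, was at 0.862, 0.0283 and 0.194 FPKM in stromal cells against 18.003, 22.8 and 20.5 FPKM in basal cells. Of 25 receptors and targets 22 were tested, 10 were higher, 7 lower and 5 did not pass, with a median of 0.22. The R-spondin receptors went apart, Lgr5 at 29.1, 25.8 and 77.6 FPKM in stromal cells against 0.659, 0.824 and 0.857 FPKM in basal cells (4.49, SE 0.37, limma adjusted p = 6.78e-06) and Lgr4 at 1.82, 1.79 and 1.29 against 7.22, 10.9 and 10.8 FPKM. Of the frizzled receptors Fzd1 was at 79.9, 86.2 and 65.4 against 16.2, 25.5 and 22.6 FPKM and Fzd6 at 0.272, 0.292 and 0.316 against 10.7, 9.59 and 11.4 FPKM. The general Wnt target gene Axin2 did not pass.

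In the hedgehog pathway an epithelial ligand signals to receptors on the mesenchyme. Of 13 members 8 were tested, 6 were higher in stromal cells and 2 lower, with a median of 0.87. Shh was at 0.276, 0.06098 and 0 FPKM in stromal cells against 19.9, 21.4 and 24.5 FPKM in basal cells (-4.37, SE 0.19, limma adjusted p = 1.25e-07). Gli1 and Hhip, which are transcribed when the pathway is active, were at 7.66, 9.31 and 14.5 and 10.4, 9.23 and 14.002 FPKM in stromal cells against 0.0194, 0.236 and 0.0878 and 0.0708, 0.0264 and 0.176 FPKM in basal cells, and the coreceptor gene Gas1 at 72.9, 37.8 and 105 against 0.415, 1.16 and 1.64 FPKM. Smo, Boc and Ptch1 were the other higher genes and Gli3, mostly a repressor, was lower. In the Notch pathway 11 of 17 members were tested, 3 were higher, 6 lower and 2 did not pass, with a median of 0.18. The 3 ligand genes tested were lower in stromal cells, Jag2 at 0.607, 0.363 and 0.493 against 34.6, 44.96 and 54.2 FPKM, Jag1 at 14.9, 15.02 and 13.05 against 80.7, 69.8 and 66.3 FPKM and Dll1 at 13.8, 2.84 and 8.59 against 107, 93.3 and 68.4 FPKM. The target genes Hey1 (10.6, 3.69 and 10.8 against 0.239, 0.659 and 0.737 FPKM) and Heyl were higher, as was Rfng, and Hes1 did not pass. Rfng lost its call without basal replicate 1 (limma adjusted p = 0.0689) and without stromal replicate 3 (0.0504).

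Ligands of the TGF-beta family and their secreted modulators were higher in stromal cells in 14 of 20 tested members (22 in all), lower in 4, and 2 did not pass, with a median of 2.36. Gdf10 was at 135, 136 and 224 against 0.413, 1.197 and 1.02 FPKM and Bmp4, a ligand that restrains prostate budding, at 74.8, 38.8 and 90.5 against 1.13, 0.955 and 0.962 FPKM. Chrd, which binds such ligands, was at 9.03, 9.496 and 17.4 against 0.0658, 0.0888 and 0 FPKM. Inhba, the activin A gene, was at 33.6, 47.6 and 10.4 FPKM in stromal cells against 216, 180.1 and 111 FPKM in basal cells, with a spread of over 4 times among the stromal libraries. Bmp5, Bmp3 and Gdf15 were lower as well, and Tgfb1 did not pass. The call of Gdf15 was lost under median-ratio scaling (limma adjusted p = 0.0664), with no filter (0.0947), and without any 1 of basal replicates 1 and 3 or stromal replicates 2 and 3 (up to 0.143). Of 13 receptors 11 were tested, 6 higher, 2 lower and 3 not passing, with a median of 0.52. The endothelial-type receptor genes Acvrl1 and Eng differed most, by 2.38 and 2.27.

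Transcripts of secreted mediators of inflammation were mostly higher in stromal cells. Of 24 cytokine and chemokine genes 20 were tested, 15 were higher in stromal cells, 2 lower and 3 did not pass, with a median of 1.65, and all 12 complement genes tested (of 15) were higher, with a median of 4.03. Besides Ccl2 and Ccl7, Cxcl14 was at 140.2, 165 and 159 against 5.94, 3.48 and 6.69 FPKM and the eotaxin gene Ccl11 at 32.3, 38.5 and 19.6 against 0, 0 and 0.249 FPKM. The membrane-bound chemokines were the exception, Cxcl16 at 13.4, 17.7 and 16.3 FPKM in stromal cells against 179, 134 and 103 FPKM in basal cells and Cx3cl1 at 31.5, 26.2 and 41.1 against 78.1, 69.9 and 73.5 FPKM. Complement C1s1 was at 286, 251 and 298 against 1.096, 1.17 and 0.855 FPKM, C7 at 101, 87.4 and 158 against 0.2299, 0.0412 and 0.0407 FPKM and C2 at 46.000, 46.3 and 77.2 against 0, 0.197 and 0.167 FPKM. Of 20 metalloproteinases and inhibitors 14 were tested, 10 were higher, 1 lower and 3 did not pass, with a median of 1.36. Mmp2, the gelatinase A gene, was at 821, 869 and 1029 against 5.19, 4.64 and 4.76 FPKM and Adamts4, an aggrecanase gene, at 279.8, 293 and 350.2 against 3.68, 3.05 and 4.23 FPKM, while Mmp15, which is held in the membrane, was at 0.416, 0.0875 and 0.0826 against 1.15, 1.63 and 1.55 FPKM.

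Immediate early genes, which tissue dissociation is known to induce, were on both sides. All 20 were tested, 10 were higher in stromal cells, 4 lower and 6 did not pass, with a median of 0.41. Fos was at 1397, 541 and 1999.7 FPKM in stromal cells against 109, 194 and 245 FPKM in basal cells, lowest in stromal replicate 2, and Dusp1 at 1295, 877 and 1699 against 252, 262 and 242 FPKM. Klf6 was at 112, 126 and 68.1 against 412, 458 and 429.9 FPKM and Myc at 222, 152 and 232 against 387, 459 and 476 FPKM. The part of dissociation in these values was not tested. Of 16 housekeeping genes 4 were higher, 7 lower and 5 did not pass, with a median of -0.047. Actb, often used to scale expression, was at 1365, 1289 and 1079 FPKM in stromal cells against 12901, 10514 and 9374 FPKM in basal cells (-3.13, SE 0.17, limma adjusted p = 4.08e-07), in the direction of the tropomyosins and not of Acta2. B2m, a subunit of class I antigen-presenting molecules, was at 1262, 1552 and 1433 against 211, 233 and 250.4 FPKM. Gapdh did not pass.

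The same contrast could be made in libraries that did not enter the results above, those of toxin-treated Lgr5-DTR-eGFP mice. Lgr5 was at 0.501 to 1.32 FPKM in their 4 stromal libraries and 0.551 to 1.47 FPKM in their 3 basal libraries, and was not tested there. Of 10893 genes tested in them, 2931 were higher in stromal cells and 3438 lower (58.5% called). There were 10422 genes tested in both, and of 6119 called in wild type cells 5923 had the same direction in Lgr5-DTR cells, 4849 were called in it, and 38 were called in the opposite direction. The difference between the contrasts, Lgr5-DTR minus wild type, was called in 362 genes, 3.47% of those tested, 96 of them with a positive (0.921%) and 266 with a negative interaction (2.55%). The 96 became 176 without Lgr5-DTR basal replicate 1, 30 without replicate 2 and 50 without replicate 3, 54 and 164 without Lgr5-DTR stromal replicates 3 and 4, 39 and 47 without wild type basal replicates 2 and 3, and 60 and 59 without wild type stromal replicates 1 and 3. The 266 became 133 without Lgr5-DTR basal replicate 2, and 139 and 148 without wild type basal replicates 2 and 3. Like wild type basal replicate 2, Lgr5-DTR basal replicates 1 and 3 and stromal replicate 3 each had 424 transcripts marked as having low data. In these, 2661, 2911 and 2603 transcripts were above the upper limit of their own interval. Lgr5-DTR stromal replicate 4 held 5.26 gigabases on annotated transcripts. The part of these traits in the interaction was not tested. Contractile genes were among those called, in both directions. The stromal excess of Acta2 and Tagln was larger in Lgr5-DTR cells, at 5.74 against 4.11 and at 3.95 against 1.10, and that of Pdlim3 and Ppp1r14a smaller, at 3.53 against 5.70 and at 1.602 against 3.38 on the log2 scale. The interaction was 2.85 for Tagln (limma adjusted p = 0.000557) and 1.63 for Acta2 (limma adjusted p = 0.0116). Tagln was at 159, 115, 105 and 133 FPKM in the Lgr5-DTR stromal libraries and 8.19, 5.47 and 8.41 FPKM in the Lgr5-DTR basal libraries. Both calls held without each library in turn, while those of Pdlim3 and Ppp1r14a were lost without Lgr5-DTR basal replicate 2, among others (limma adjusted p up to 0.0947 and 0.0771). Col16a1 was at 21.4, 33.4, 24.4 and 24.3 FPKM in the Lgr5-DTR stromal libraries against 25.8, 10.51 and 15.3 FPKM in the Lgr5-DTR basal libraries. Genotype and toxin differ together between these sets, as far as the labels tell, and cannot be told apart.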

How the data were processed

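RNA of sorted cells was amplified with the SMART-Seq v4 low-input kit, made into Nextera XT libraries and read on an Illumina HiSeq instrument, per the labels' protocols. The authors deposited, for each library, FPKM per RefSeq transcript, made with TopHat2 and Cufflinks against mm10 per the submitters' processing notes, and their versions are not given in the sources used here. A coverage signal per transcript was deposited as well, per the file headers. Coverage times transcript length came to 7.20 to 8.12 gigabases in the 6 libraries, and 9339 to 10604 genes reached 1 FPKM. The tables hold no counts, so no counting interval is given, and an exact 0 is called "listed at 0".

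FPKM were summed per gene symbol, and genes at 1 FPKM in at least 3 of the 6 libraries were tested on log2(FPKM + 1) by limma (version 3.58.1, R version 4.3.3, empirical Bayes with trend and robust options), stromal minus basal, at a Benjamini-Hochberg adjusted p of 0.05. Genes whose status column marked a failed or capped estimate were not tested, a filter chosen after the status column was seen (Amd1 and Amd2, and Ly6e in the Lgr5-DTR libraries). Lgr5-DTR libraries were fitted alike, and the contrasts were compared by an interaction term for genes that passed both filters. Isoform ratios were tested for genes with a mean of at least 5 FPKM. The stromal against basal tests and the interaction were checked on simulated data, in which far fewer genes changed than were called here. The isoform ratio was not checked in this way. Tables were made with Python 3.11.15, pandas 2.3.3, numpy 2.4.6 and matplotlib 3.10.9. Exon coordinates and sequences come from GENCODE M21 (GRCm38, the assembly of mm10) and promoters from RefSeq (GRCm38.p6).

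Named genes were the 10 largest called changes in each direction whose groups did not overlap and whose higher group averaged 20 FPKM, up to 4 called members in each direction from each list, matrix, contractile and integrin genes at 20 FPKM in all 6 libraries, isoform list genes with a called transcript, and Lgr5, Vim, Trp63, Krt5 and Krt14. Other names are members of counted lists, chosen after their values were seen. The members and lists were chosen with earlier results of these data known. Alternatives were other pseudocounts, filters and scalings, limma treat at a log2 difference of 1, the most abundant transcript in place of the sum, a replicate block, and leaving out each library. The most abundant transcript was taken by its mean over the 6 libraries. Counting is not stated to use strand, so genes whose annotated span overlaps another gene are uncertain, among them Acta2, Des, Tagln, Flna, Srf, Col1a1, Bgn, Lama2, Lama5, Col17a1, Itga3, Itga6, Itgb4, Krt14, Krt15, Krt17, Rarres2, Ccl2, Ccl7, Fgf7, Fgf1, Pdgfra, Lgr5, Shh, Gli1 and Jag2. So are near-identical paralogs (Acta2, Actg2 and Actb; Krt14, Krt16 and Krt17). Some items are not reported here.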

Additional observations from a re-analysis of the deposited data

Results flagged for a closer look

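The stromal minus basal difference of 21 named genes was called as different between Lgr5-DTR and wild type cells. Among all 10422 genes tested, 362 were called (3.47%). Genes were mostly named for a call in the wild type contrast, which also enters the interaction, so the 21 cannot be set against that share. Each of the 21 was tested as a limma interaction, Lgr5-DTR minus wild type, on the log2 scale. Larger in Lgr5-DTR cells were the stromal excess of Tagln (2.85), Acta2 (1.63), Col4a1 (1.76) and the Wnt receptor gene Ror1 (1.73). Smaller there were those of C7 (-3.21), Dpt (-2.37), Pdlim3 (-2.17), Clec3b (-2.14), Vtn (-1.86), Ppp1r14a (-1.78), Fgf7 (-1.62) and Mfap4 (-1.55). For C7 the difference between stromal and basal cells was 3.47 in Lgr5-DTR cells and 6.68 in wild type cells.

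Of the genes higher in basal cells, the basal excess was smaller in Lgr5-DTR cells for Trp63 (1.34), Col18a1 (1.34) and Shh (1.16), and larger for Cldn1 (-1.79) and Plec (-1.31). Shh was at 9.14, 7.55 and 8.6004 FPKM in the Lgr5-DTR basal libraries and 19.9, 21.4 and 24.5 FPKM in the wild type basal libraries. The called direction differed in 3 genes. Cdh13 (-3.82) was lower in stromal cells in Lgr5-DTR (-1.82) and higher in wild type (2.01), and Calca (-3.67), a peptide gene of neuroendocrine cells and nerves, behaved likewise (-1.48 and 2.19). Ier3 (1.44) was higher in stromal cells in Lgr5-DTR (0.74) and lower in wild type (-0.70). For Col16a1 (1.57) the difference was 0.63 in Lgr5-DTR cells, which did not pass (limma adjusted p = 0.0815), and -0.94 in wild type cells, where it was called. The adjusted p-values of the 21 interactions ran between 5.54e-05 and 0.0494. The calls of Tagln, Acta2, C7, Dpt, Clec3b, Fgf7, Trp63, Plec, Cdh13, Calca and Ier3 held without each library in turn, and those of the other 10 were lost without at least 1.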

How the results depend on the processing

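The count of genes higher in stromal cells was 3235, and 2034 with a filter of 5 FPKM (2463 lower against 3108). With treat at a log2 difference of 1 it was 1273, with 812 lower. Leaving out a library gave 2851 to 3384 higher and 2623 to 3184 lower, and the other settings tried kept both counts within 1.5 times. Quantile normalization moved the median of all genes to -0.133, and median-ratio scaling to 0.098. Of 215 named genes with a call, 14 lost it or reversed under a setting that kept all 6 libraries, treat apart. The interaction had 96 higher and 266 lower genes. At a pseudocount of 0.1 there were 176 lower, and without a library 30 to 176 higher and 133 to 324 lower. The isoform ratio had 255 higher and 248 lower transcripts, 122 and 116 at a gene mean of 20 FPKM, 130 and 127 as a ratio of shares (chosen after seeing the data), and 172 to 204 and 152 to 221 without a library.

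Signs changed for few named genes, none of them by a scaling where the gene was called. With the most abundant transcript only, Csnk1d was -0.71, Mprip 0.32 and Slk 0.19. Itgb5 was 0.062 under median-ratio scaling, 0.0047 under quantile normalization, and between -0.28 and 0.079 without a library (0.016 without stromal replicate 1). Tpm3 was 0.0014 under median-ratio scaling and between -0.29 and 0.097 without a library. Lamc1 was between -0.074 and 0.11 without a library (-0.034 without basal replicate 3). The cause was not tested. Stromal and basal libraries of the same replicate number did not all deviate together across genes, with correlations of -0.020, -0.21 and 0.26, so these numbers were not taken as pairs. The title number that stromal replicate 2 and basal replicate 1 share (correlation 0.382) ties 1 pair only, and a block on it leaves no residual degrees of freedom. With the replicate block, on the replicate numbers, the main counts were 3211 and 3037, the interaction counts 165 and 311, and the isoform counts 132 and 127.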
